A study of Mus musculus with 10 samples.

Results

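Affymetrix arrays compared the cystic duct with the gallbladder in wild type mouse embryos 15 days post coitum (15 dpc). The comparison rests on 4 of the 10 samples of the study: 2 cystic ducts and 2 gallbladders, all wild type and all from ICR, an outbred stock. They were picked by their labels alone. The other 6 arrays are gallbladders of the same stage: Sox17+/- of ICR, wild type of C57BL/6 (B6, an inbred strain) and Sox17+/- of B6, with 2 arrays each. They entered the fit for its estimate of spread and are shown beside the results. Sox17+/- embryos carry 1 altered copy of the endoderm factor gene Sox17, and the labels do not describe the allele. All embryos were collected at day 15 of pregnancy. The series design calls the samples of a group biological replicates. The labels name no animal or litter and do not say how many organs made a sample, so the p-values measure only the spread between these samples.

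The gallbladder stores bile, and the cystic duct is the narrow tube that joins it to the common bile duct. Both grow from a bud of the ventral foregut endoderm, which becomes the biliary epithelium, and both are wrapped in visceral mesenchyme that forms smooth muscle, fibroblasts and matrix. Along the gut tube, epithelium and mesenchyme take regional identities through Hox genes and through exchanged signals. Hedgehog ligands from the epithelium act on Foxf1 and Gli genes in the mesenchyme, and BMP, Wnt and FGF ligands pass in both directions.

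The genes described are members of 15 lists of regional identity, 4 epithelial, 4 mesenchymal and 7 positional. The lists held 569 entries, of which 537 were read by the array and 474 passed a filter on the mean signal over all 10 arrays. The other 63 were too dim and were not tested. Values are quantile normalized log2 signals, so a difference of 1 is a doubling, and each gene was read by its brightest probe set (1 that may hybridise to several transcripts only where no other was present). A gene was called higher or lower where its limma adjusted p was under 0.05 over all 14696 genes tested and both cystic duct values lay beyond both gallbladder values.

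Among all genes tested, 842 were called higher in cystic duct (5.73%) and 1265 lower (8.61%), and the median difference was -0.03 log2. The split between directions moved with the scaling: 40.0% of the calls were higher here, 26.5% with arrays centred on their medians and 15.2% with the deposited values unscaled. Separation without a test was far more common: both cystic duct values lay above both gallbladder values in 3192 genes (21.7%) and below them in 4051 (27.6%). A gap of over 1 log2 unit separated 333 genes upward (2.27%) and 290 downward (1.97%). Of the called genes, 741 of the higher and 1124 of the lower also lay beyond all 8 gallbladder arrays. The cystic duct pair was the least alike of the 5 pairs. Its r was 0.898 over the genes tested, with a median absolute difference of 0.543 log2. The gallbladder pairs had r of 0.966 to 0.996 and a median of at most 0.192. The lowest r of these, 0.966, was in the ICR wild type gallbladder pair compared here. Its arrays differed by over 1 log2 unit in 609 genes, against 18 to 127 in the other gallbladder pairs and 3565 in cystic duct. Cystic duct replicate 2 had the narrowest signal range as deposited, with an interquartile range of 2.75 against 3.46 to 3.85 in the other 9 arrays. The calls borrow the spread of the gallbladder groups: with the 4 compared arrays alone, or with array weights, limma called 0 genes, with 2083 and 1871 at an unadjusted p under 0.05. As a check of RNA degradation, Gapdh probe sets at the 3' end exceeded those at the 5' end by 0.92 and 0.31 log2 in cystic duct and by 0.60 and 0.93 in gallbladder.

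Liver and blood transcripts were higher in both cystic duct arrays. All 27 hepatocyte markers tested were separated upward and lay above all 8 gallbladder arrays, and 25 were called higher, with a median of 3.47 log2. Their summed log2 signal was 17.77 and 17.26 in cystic duct, 15.32 and 14.93 in gallbladder, and 14.93 to 16.23 over the 8 gallbladders. The plasma protein genes Serpina1b, Apoh and Fgb stood 3.43, 4.29 and 3.91 log2 higher. All 20 erythroid markers were separated upward and 16 were called, with a median of 2.90, and their summed signal was 15.79 and 14.53 in cystic duct against 13.05 and 12.13 in gallbladder. Both lists were further from gallbladder in cystic duct replicate 1, with hepatocyte medians of 4.02 and 2.98 and erythroid medians of 3.81 and 1.99 in replicates 1 and 2. Of 34 leukocyte and platelet markers, 8 were called higher and 1 lower, and of 24 cell cycle genes 9 were called higher and 0 lower. Without gallbladder replicate 2, limma called 6 erythroid, 0 leukocyte and 4 cell cycle genes higher, with 8 leukocyte genes higher at an unadjusted p under 0.05. Without gallbladder replicate 1 it called 6 cell cycle genes higher, and without cystic duct replicate 2 it called 20. The values as deposited gave 11 erythroid, 3 leukocyte and 1 cell cycle genes higher, arrays centred on their medians gave 13, 4 and 1, and the replicate block gave 15 leukocyte genes. The replication factor Cdt1 stood at 1.06 and Cdc20, of the mitotic ubiquitin ligase, at 0.98. The part of these transcripts in the differences of the identity genes was not tested, and in whole tissue fewer cells of a type and less RNA per cell cannot be told apart.

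**Figure D1:**
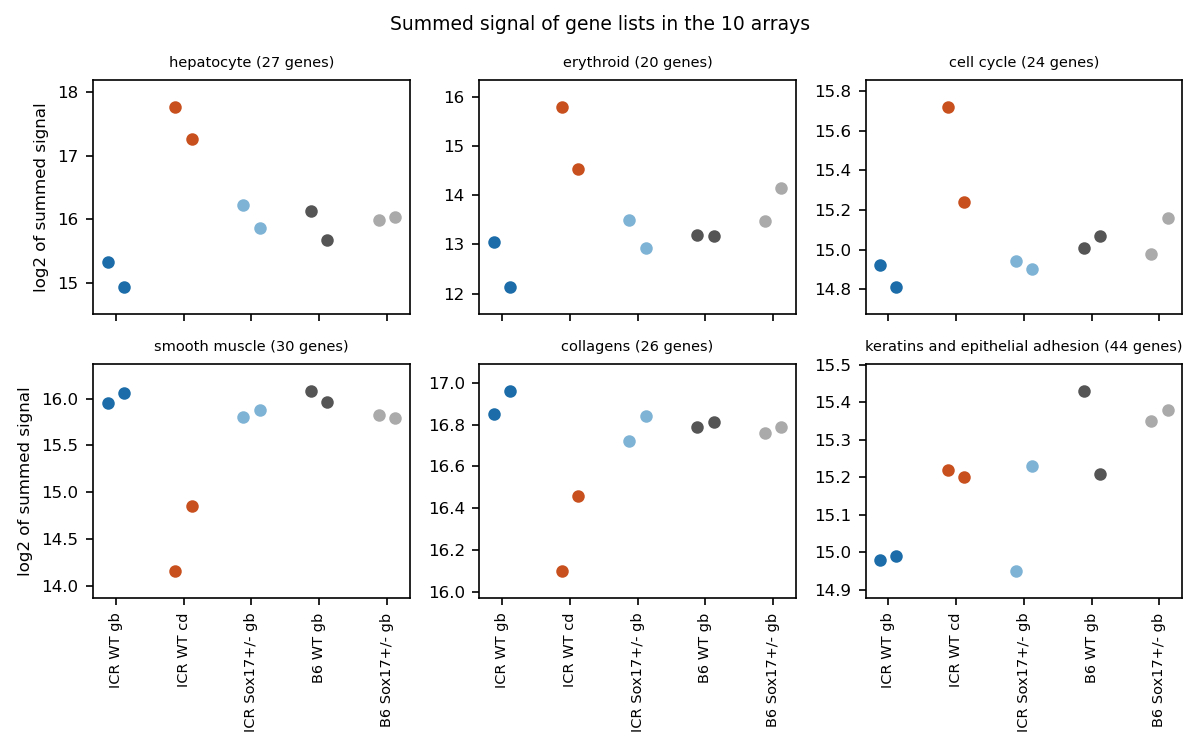
Log2 of the summed normalized signal of 6 gene lists (vertical axes, each with its own range) in the 10 arrays (points), by group; WT is wild type, gb gallbladder, cd cystic duct. Hepatocyte, erythroid and cell cycle sums are above both ICR wild type gallbladders in both cystic ducts, smooth muscle and collagen sums are below all 8 gallbladders, and the keratin and adhesion sums of 15.22 and 15.20 lie within the gallbladder range.

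Mesenchymal genes were lower in cystic duct and epithelial genes went both ways. Of 152 mesenchymal genes tested, 69 were called lower (45.4%, against 8.61% of all genes) and 1 higher (0.7%, against 5.73%), with a median of -0.78 log2. Of 135 epithelial genes, 22 were called higher (16.3%) and 10 lower (7.4%), so their share of lower calls was near that of all genes. The epithelial median of 0.13 turned to -0.11 without scaling (and to -0.00 centred on medians). The balance of epithelial calls turned too, to 13 higher and 17 lower without scaling, and stood at 15 higher and 13 lower centred on medians. Of 189 positional genes, 43 were called lower (22.8%) and 3 higher (1.6%), with a median of -0.17. Without scaling, the all-gene median stood at -0.27 log2, and 13 of the 26 member genes called higher and 117 of the 122 called lower kept their call. Calls that held in both other scalings, without each of the 4 arrays in turn and with the replicate number in the model numbered 8 higher and 47 lower. Where limma called 0 genes of a list in a direction, few also had an unadjusted p under 0.05 there: upward 4 mesenchymal transcription factors, 2 Wnt genes, 1 BMP gene and 0 smooth muscle, matrix, Hox partner and Hedgehog genes, and downward 3 transport genes and 1 claudin.

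**Figure D2:**
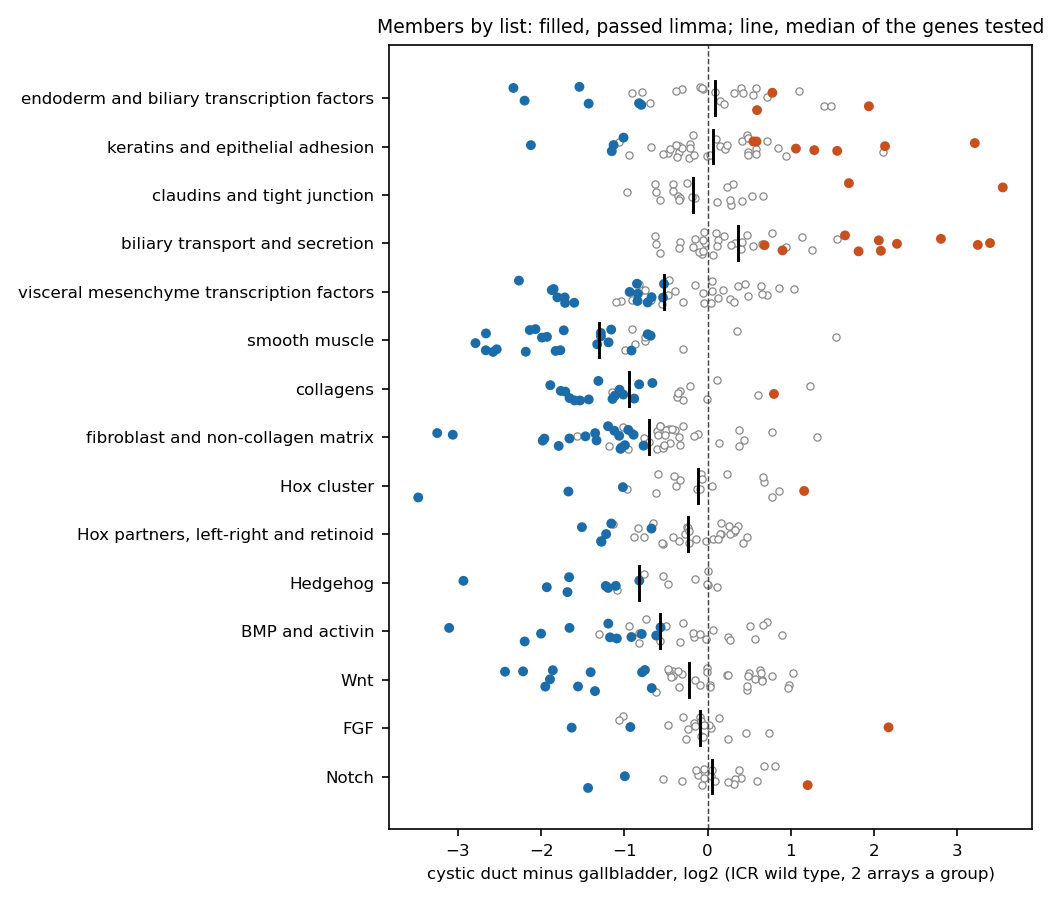
Difference of the means of the 2 cystic duct and 2 gallbladder arrays (log2, horizontal axis) for each gene tested in the 15 lists; orange points were called higher and blue points lower by limma over all genes, open points were not called, and black lines are list medians. The smooth muscle median lies at -1.30 and the collagen median at -0.95, whereas the endoderm transcription factor median lies at 0.09.

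Among transcription factors of visceral mesenchyme, 15 of 45 were called lower and 0 higher, with a median of -0.52 log2. Foxf1, the forkhead factor of gut mesenchyme, read 10.91 and 10.95 in gallbladder and 9.12 and 9.13 in cystic duct. The 2 cystic ducts were nearly equal and lay below all 8 gallbladders, the lowest of which read 9.92. Foxf1 was thus 3.49-fold lower (95% interval of the log2 difference -2.10 to -1.51, limma adjusted p = 0.00138). Gata5, a GATA zinc finger factor, read 7.20 and 7.72 in gallbladder and 5.58 and 4.81 in cystic duct, a difference of -2.27 (SE 0.31, limma adjusted p = 0.00473). Tbx4, a T-box factor known from hindlimb and lung mesenchyme, read 7.38 and 7.30 against 5.25 and 5.69. For both genes the cystic ducts lay below every gallbladder array, by over 1 log2 unit. Meox2, a homeobox factor of somites and mesenchyme, differed by -1.85 (SE 0.27), and Tbx20, a T-box factor known from the heart, by -1.72 (SE 0.30). Hand2, a helix-loop-helix factor, differed by -0.85 (SE 0.12, limma adjusted p = 0.00497), with 11.28 in both gallbladders and 10.39 and 10.47 in the cystic ducts.

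Upward, none of these factors passed. The separated genes of smallest p were Sox6 at 1.04 (SE 0.30, limma adjusted p = 0.0572) and Hlx, a homeobox gene of gut mesenchyme, at 0.71 (SE 0.25, limma adjusted p = 0.0913). Barx1, the stomach mesenchyme factor, overlapped between the groups, with 5.62 and 5.28 in gallbladder and 5.08 and 6.56 in cystic duct. Nkx2-5 overlapped too, with 6.03 and 5.66 against 5.75 and 7.67. Averaged over all its probe sets, Foxf1 stood at -1.07 (limma adjusted p = 0.0478), Gata5 at -1.20, Tbx4 at -0.70 and Meox2 at -0.88, the last 2 no longer passing. Without gallbladder replicate 2 the call of Tbx20 was lost, with a difference of -1.64 (limma adjusted p = 0.0501).

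Of the 15 identity lists, smooth muscle had the largest share of calls. Of 30 genes, 21 were called lower (70.0%, against 8.61% of all genes) and 0 higher, 16 were separated by over 1 log2 unit, and the median was -1.30. Calponin (Cnn1), an actin-binding protein of contractile smooth muscle, read 8.38 and 8.73 in gallbladder and 5.39 and 6.14 in cystic duct. The lowest of the 8 gallbladders read 7.95, so both cystic ducts lay below all of them. Cnn1 was 6.91-fold lower (SE 0.34 log2, limma adjusted p = 0.00325). Myh11, the smooth muscle myosin heavy chain, read 10.06 and 10.01 against 7.03 and 7.72, a difference of -2.67 (SE 0.24, limma adjusted p = 0.00166). Pcp4, a small regulator of calmodulin, read 9.65 and 10.23 against 6.85 and 7.72. In each of these 3 genes cystic duct replicate 1 was the lower of the pair.

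The defining marker Acta2, smooth muscle actin, was still bright in cystic duct at 11.95 and 12.58, against 13.94 and 14.13 in gallbladder, a difference of -1.77 (SE 0.19). Tagln, the actin-binding transgelin, differed by -1.83 (SE 0.38), a call lost without gallbladder replicate 1 (-1.53), and stood at -1.17 without cystic duct replicate 1. Des, desmin, overlapped between the groups, with 8.11 and 7.71 in gallbladder and 7.96 and 8.57 in cystic duct. Actg2, enteric smooth muscle actin, overlapped because gallbladder replicate 1 read 8.85 and replicate 2 read 10.79, against 8.40 and 9.43 in cystic duct. Cckar, the cholecystokinin receptor through which a meal contracts the gallbladder, read 8.40 and 8.52 in gallbladder and 5.04 and 6.81 in cystic duct. The ICR Sox17+/- gallbladders read 6.18 and 6.92 for Cckar, so the cystic ducts did not lie below all 8 gallbladders. The actin-binding Synpo2 differed by -2.58 (SE 0.60). Of the smooth muscle genes, 11 of the 21 kept their call without each of the 4 arrays in turn, and the list's count was 12 without gallbladder replicate 1 and 13 without replicate 2. The calls of Cckar (-2.60 and -2.47) and Synpo2 (-2.85 and -2.31) were lost without gallbladder replicate 1 or 2, and without cystic duct replicate 1 these genes stood at -1.65 and -1.62. Averaged over probe sets, Myh11 stood at -1.09, Synpo2 at -0.84 and Acta2 at -1.07, and Synpo2 and Acta2 did not pass.

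Many contractile genes are known targets of serum response factor (Srf), which binds the CArG box and acts with myocardin. Because these genes moved together, the 250 bases upstream of their RefSeq starts (GRCm38.p6) were searched for a full CArG box, which reads alike on both strands. Of 30 windows of 26 smooth muscle genes, 6 windows of 5 genes held one, against 482 of 32851 windows of all genes (1.47%). The list was made of known smooth muscle genes, with Srf among them, so this share cannot bear on the difference between the tissues. The 5 genes are Vcl, Dmd, Myl9, Ldb3 and Srf itself. Ldb3 stood at -1.78 without being called, and the same Ldb3 box was counted in windows of different starts. The stretches printed belong to 2 genes called lower, Vcl and Dmd, and to 2 that were not called, Myl9 and Srf. Each box is in capitals, and the Srf stretch holds a pair.
Vcl, chr14:20929148-20929205, plus strand: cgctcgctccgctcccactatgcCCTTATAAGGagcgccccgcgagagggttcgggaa
Dmd, chrX:82948747-82948806, plus strand: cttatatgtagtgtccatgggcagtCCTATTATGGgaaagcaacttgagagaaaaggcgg
Myl9, chr2:156775278-156775337, plus strand: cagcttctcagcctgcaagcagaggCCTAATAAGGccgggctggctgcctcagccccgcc
Srf, chr17:46556210-46556269, minus strand: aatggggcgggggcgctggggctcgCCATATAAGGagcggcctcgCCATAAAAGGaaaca
Vcl, the adhesion protein vinculin, read 11.94 and 11.69 in gallbladder and 10.56 and 10.76 in cystic duct (-1.16, SE 0.13). Dmd, dystrophin, read 8.71 and 8.88 against 7.51 and 7.69 (-1.19, SE 0.22). Myl9, a regulatory myosin light chain, overlapped, with 10.48 and 12.44 against 10.10 and 11.33, and Srf overlapped with 6.22 and 7.52 against 6.26 and 6.88. The box thus stood in windows of genes that were lower and of genes that were not called. The call of Dmd was lost without gallbladder replicate 1 or 2 (-1.27 and -1.11) and averaged over probe sets (-0.60), where Vcl kept its call at -0.73.

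Collagen chains were lower in cystic duct, with 15 of 26 called lower, 1 higher, and a median of -0.95 log2. Col11a1, a chain that regulates fibril width, read 9.85 and 10.04 in gallbladder and 8.11 and 8.46 in cystic duct (-1.66, SE 0.16, limma adjusted p = 0.0020). Col23a1, a membrane-bound collagen, read 8.23 and 8.55 against 6.73 and 6.28 (-1.89, SE 0.24). Col5a3, another fibril-regulating chain, read 7.22 and 7.15 against 5.37 and 5.47 (-1.76, SE 0.23). All 15 called chains lay below all 8 gallbladders in both cystic ducts. The basement membrane chain Col4a5 differed by -1.71 (SE 0.32) and Col8a1, of short-chain networks, by -1.60 (SE 0.34). Of the main interstitial chains, Col1a1 and Col1a2 were called lower at -0.88 (SE 0.22) and -0.66 (SE 0.11), and Col3a1 differed by -0.33 (SE 0.12, limma adjusted p = 0.103).

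Col18a1, a basement membrane collagen, was the exception, with 9.99 and 9.68 in gallbladder and 10.62 and 10.65 in cystic duct (0.80, SE 0.17, limma adjusted p = 0.0231). Both cystic ducts lay above all 8 gallbladders for Col18a1, but the call was lost without scaling (0.42), centred on medians (0.53) and without gallbladder replicate 2 (0.64). Of the 15 lower chains, 10 kept their call without each array in turn. Col4a5 (-1.53 without gallbladder replicate 2) and Col8a1 (-1.73 and -1.46 without replicate 1 or 2) lost theirs. Col5a3 stood at -0.81 and Col8a1 at -0.40 averaged over probe sets.

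Among fibroblast and non-collagen matrix genes, 18 of 51 were called lower and 0 higher, with a median of -0.70. Without scaling 34 were called lower, 27 with arrays centred on their medians, 8 and 10 without gallbladder replicate 1 or 2, and 39 without cystic duct replicate 2. The largest differences were in Mfap5, a protein of elastic microfibrils, and Aspn, the small leucine-rich proteoglycan asporin. Mfap5 read 9.42 and 9.55 in gallbladder and 5.14 and 7.33 in cystic duct, and Aspn read 10.95 and 11.09 against 6.56 and 9.35. Both cystic ducts were low for both genes, but replicate 1 was the lower by over 2 log2 units. More even were Cthrc1, a secreted collagen-associated protein, at 10.42 and 10.16 against 8.06 and 8.55 (-1.98, SE 0.27), and Ogn, osteoglycin, at 12.06 in both gallbladders against 9.83 and 10.72 (-1.79, SE 0.24). Dpt, dermatopontin, differed by -1.96 (SE 0.47), but the lowest of the 8 gallbladders read 8.89, against 7.94 and 9.08 in cystic duct. Of general fibroblast genes, Vim, the intermediate filament vimentin, was called lower at -1.05 (SE 0.17), and averaged over probe sets it stood at -1.06 without passing. S100a4, a calcium-binding protein of fibroblasts, was called lower at -0.99 (SE 0.25), a call lost without gallbladder replicate 1 or 2 (-0.94 and -1.05). Pdgfrb, a receptor of pericytes and fibroblasts, stood at 0.14 (SE 0.14), Dcn, decorin, at -0.61 (SE 0.31), and Thy1 at 0.37 (SE 0.26), and none of these 3 passed. Lum, lumican, and Pdgfra overlapped, since gallbladder replicate 1 read 10.95 and 7.55 and replicate 2 read 13.27 and 9.96. The calls of Mfap5 (-3.31 and -3.18), Aspn and Dpt (-1.88 and -2.04) were lost without gallbladder replicate 1 or 2, and without cystic duct replicate 1 Mfap5 stood at -2.15 and Aspn at -1.67.

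The defining biliary epithelial markers were present in both tissues. Epcam, an adhesion molecule of simple epithelia, read 11.83 and 11.82 in gallbladder and 11.10 and 11.49 in cystic duct, and Cdh1, E-cadherin, read 11.26 and 11.55 against 10.81 and 11.06. Krt7 read 9.16 and 8.98 against 8.96 and 8.86, and the biliary factor Sox9 overlapped with 7.20 and 7.12 against 7.67 and 6.53. None of these 4 passed, with differences of -0.53, -0.47, -0.16 and -0.06. Epcam was called lower at -0.89 without scaling and at -0.69 averaged over probe sets. Krt19, the cholangiocyte keratin, read 10.32 and 10.16 in gallbladder and 8.94 and 9.23 in cystic duct, and it was called lower at -1.15 (SE 0.20, limma adjusted p = 0.00994). Both cystic ducts lay below all 8 gallbladders for Krt19, the lowest of which read 10.05. The call was lost without gallbladder replicate 1 (-1.07, limma adjusted p = 0.0583).

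Of 29 endoderm and biliary transcription factors, 6 were called lower (20.7%) and 3 higher (10.3%). Cited1, a coregulator without DNA binding of its own, read 10.79 and 10.92 in gallbladder and 8.54 and 8.51 in cystic duct, 5.04-fold lower (SE 0.21 log2, limma adjusted p = 0.00166). The cystic duct pair was nearly equal for Cited1 and lay between the wild type gallbladders and the ICR Sox17+/- gallbladders, which read 7.50 and 7.67. Sox17 itself read 9.52 and 9.24 in gallbladder and 8.28 and 7.63 in cystic duct (-1.43, SE 0.24), near the 7.65 and 7.90 of the ICR Sox17+/- gallbladders. The second Sox17 probe set gave -1.69. Onecut1, a cut homeobox factor of biliary and hepatic cells, read 9.05 and 9.09 against 7.23 and 7.83 (-1.54, SE 0.36). B6 gallbladders read lower still for Onecut1, from 5.59 to 6.66, so its position relative to cystic duct holds only within ICR. The Krüppel-like factors Klf4 and Klf5 differed by -2.20 (SE 0.43) and -0.82 (SE 0.20). The lowest gallbladder, of B6 wild type, read 8.35 for Klf5, against 8.60 and 8.62 in cystic duct.

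Hnf4a, a nuclear receptor of hepatocytes and gut epithelium, read 9.01 and 8.79 in gallbladder and 10.73 and 10.95 in cystic duct. It was 3.83-fold higher (95% interval of the log2 difference 1.57 to 2.30, limma adjusted p = 0.00143) and above all 8 gallbladders. Hnf4a was the higher in cystic duct replicate 2, as were the liver genes Shbg and Gcgr, while 23 of the 27 hepatocyte markers were higher in replicate 1. The cell source of the Hnf4a signal was not tested. Isl1, a homeobox factor, differed by 0.78 (SE 0.19) at a low level, 4.31 and 4.55 against 5.38 and 5.04. Hhex, the homeobox factor of the liver and biliary bud, differed by 0.59 (SE 0.16). The ICR Sox17+/- gallbladders read 10.09 and 10.39 for Hhex, against 10.04 and 10.29 in cystic duct, so it did not stand above all 8 gallbladders. The call of Hhex was lost in both other scalings (0.23 as deposited, 0.33 centred) and without either gallbladder or cystic duct replicate 2 (0.60, 0.59 and 0.47), and that of Isl1 as deposited (0.77) and without either gallbladder (0.66 and 0.90). Calls were also lost without gallbladder replicate 1 for Sox17 (-1.29) and Klf5 (-0.63), without either gallbladder for Klf4 (-2.09 and -2.31) and Onecut1 (-1.56 and -1.52), and, averaged over probe sets, for Klf4 (-1.45), Klf5 (-0.66) and Onecut1 (-1.22). Hnf4a so averaged stood at 1.21.

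Among keratins and adhesion genes, 7 of 44 were called higher (15.9%) and 4 lower (9.1%, near the 8.61% of all genes), with a median of 0.07. Krt20, a keratin of gut epithelium, read 4.84 and 4.66 in gallbladder and 7.28 and 6.48 in cystic duct, 4.38-fold higher (SE 0.28 log2, limma adjusted p = 0.00423). It lay above all 8 gallbladders, the highest of which read 5.60. Cdh16, kidney-specific cadherin, read 6.74 and 6.39 against 7.73 and 8.52 (1.56, SE 0.28), and Cdh6, another cadherin, 6.67 and 6.78 against 8.03 and 7.99 (1.28, SE 0.22). The highest of the 8 gallbladders read 7.82 for Cdh16 and 8.14 for Cdh6, so neither gene stood above all of them in both cystic ducts. Krt15, a keratin of stratified and progenitor epithelia, differed by 1.06 (SE 0.21). The highest of the 8 gallbladders read 5.18 for Krt15, against 4.90 and 5.20 in cystic duct. Krt18 was called higher at 0.59 (SE 0.14), but the highest of the 8 gallbladders read 11.51, against 11.45 and 11.67 in cystic duct. Its partner Krt8 read 8.20 and 10.77 in gallbladder and 11.86 and 11.33 in cystic duct and did not pass (limma adjusted p = 0.0724). For Krt8 the other 6 gallbladders read 11.66 to 11.99. Averaged over probe sets Krt8 was called higher at 1.08, and without gallbladder replicate 2 at 3.40.

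Lgals3, galectin-3, had the widest difference of this list at 3.21. Its gallbladder replicate 1 read 3.82 and replicate 2 read 6.74, against 8.62 and 8.35 in cystic duct. The other 6 gallbladders read 7.35 to 8.95 for Lgals3, so the cystic ducts lay within their range. Tspan1, a tetraspanin, read 5.67 and 5.63 in gallbladder and 4.03 and 3.03 in cystic duct (-2.12, SE 0.41). Muc1, the membrane mucin, differed by -1.13 (SE 0.27), and Itga6, an integrin of the basal surface, by -1.01 (SE 0.22). Krt19, Tspan1, Muc1 and Itga6 all lay below the 8 gallbladders in both cystic ducts. Without gallbladder replicate 1 the calls of Lgals3 (1.75), Cdh6 (1.23), Krt15 (1.09), Tspan1 (-2.10), Muc1 (-1.13) and Itga6 (-0.80) were lost, and without replicate 2 those of Cdh16 (1.38), Krt15 (1.03), Tspan1 (-2.14) and Muc1 (-1.13). Averaged over probe sets, Tspan1 stood at -0.93, and the calls of Cdh6 (0.84) and Itga6 (-0.69) were lost. Centred on medians Lgals3 (2.94) and Cdh6 (1.06) were not called, nor was Cdh6 without scaling (0.95).

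Of 22 claudins and tight junction genes, 2 were called higher (9.1%, against 5.73% of all genes) and 0 lower, and the median was -0.17. Cldn1 read 6.41 and 5.78 in gallbladder and 9.83 and 9.45 in cystic duct, 11.7-fold higher (SE 0.34 log2, limma adjusted p = 0.00199). The highest gallbladder read 7.43, so both cystic ducts stood 2 log2 units or more above all 8. Claudin 1 is a barrier claudin that liver and biliary cells both express. Cldn8 read 7.08 and 6.62 against 8.58 and 8.52 (1.70, SE 0.33). The other 6 gallbladders read 7.15 to 9.36 for Cldn8, with a median of 8.58, so the cystic ducts lay within their range. Other claudins did not pass: Cldn2, a pore-forming claudin, stood at -0.33 (SE 0.33), Cldn7 at -0.16 (SE 0.18) and Cldn3 at 0.41 (SE 0.18). The other, dimmer Cldn1 probe sets gave -0.24, 0.59 and 0.90, and averaged over all 4 Cldn1 stood at 1.20. The call of Cldn8 was lost without scaling (1.38) and without gallbladder replicate 2 (1.47).

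Genes of biliary transport and secretion were higher or did not pass: 10 of 40 were called higher and 0 lower, with a median of 0.36. The largest were Aqp8, a water channel, at 3.39 (SE 0.57), and Slc10a1, the bile salt importer of hepatocytes, at 3.25 (SE 0.51). Abcb4 and Abcb11, the phospholipid and bile salt exporters of the hepatocyte canaliculus, stood at 2.08 (SE 0.30) and 2.06 (SE 0.33). These 4 are also hepatocyte genes, and the cell source of their signal was not tested. All 4 read higher in cystic duct replicate 1, as did the hepatocyte list and 545 of the 842 genes called higher. Car2, a carbonic anhydrase that red cells hold too, read 11.57 and 10.53 in gallbladder and 14.06 and 12.60 in cystic duct. Tff3, a trefoil peptide of mucus-secreting epithelia, read 6.19 and 6.38 in gallbladder and 9.56 and 8.61 in cystic duct, 6.99-fold higher (SE 0.36 log2, limma adjusted p = 0.00365) and above all 8 gallbladders.

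Car14, a membrane carbonic anhydrase, read 5.75 and 5.80 in gallbladder against 7.84 and 7.33 (1.82, SE 0.24). The cell source of the Car14 signal was not tested. Aqp1, a water channel, was called higher at 0.90 (SE 0.23), and its cell source was not tested. Aqp1 was not called without scaling (0.54), centred on medians (0.65), or without gallbladder replicate 1 or 2 (1.09 and 0.71). Cftr, the chloride channel, stood at 0.32 (SE 0.43), Sctr, the secretin receptor, at 0.28 (SE 0.18), and Slc4a2, the chloride-bicarbonate exchanger, at -0.15 (SE 0.14), and these 3 did not pass. Downward, the separated genes of smallest p were Agr2, a disulfide isomerase of mucous cells, at -0.62 (SE 0.18), and Kcnq1, a potassium channel, at -0.63 (SE 0.19), and Kcnq1 was called without scaling (-0.92) and centred on medians (-0.82). Aqp8 lost its call without gallbladder replicate 1 (3.35) and Car2 without replicate 2 (1.75) and as deposited (1.96).

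**Figure D3:**
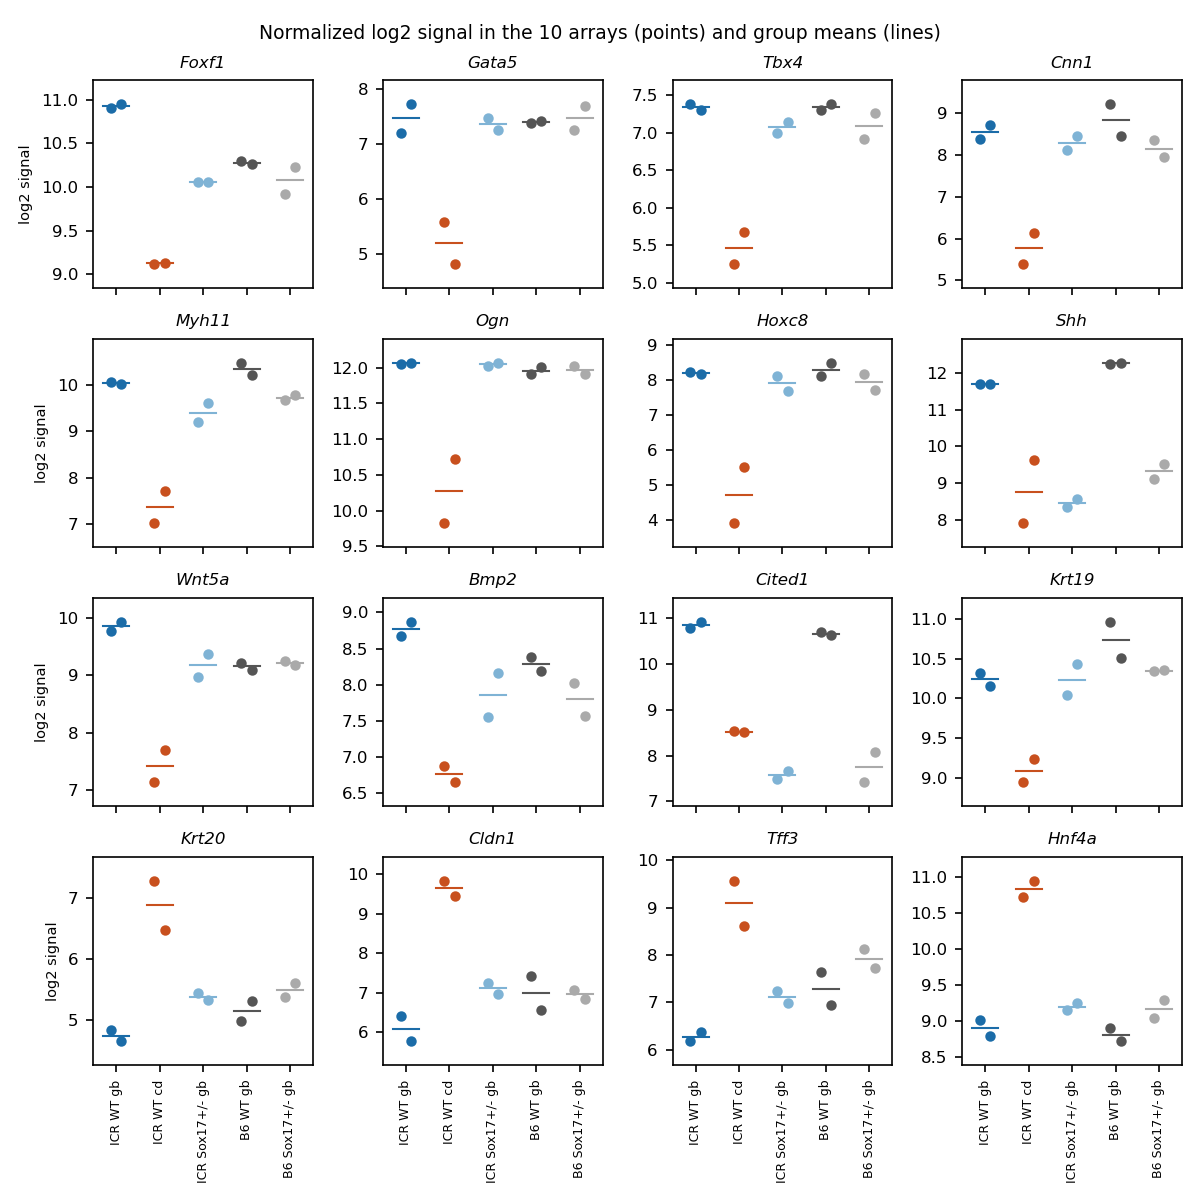
Normalized log2 signal (vertical axes, each with its own range) of 16 genes in the 10 arrays (points) with group means (lines). Foxf1, Gata5, Tbx4, Cnn1, Myh11, Ogn, Hoxc8, Wnt5a, Bmp2 and Krt19 are lowest in the 2 cystic ducts, Krt20, Cldn1, Tff3 and Hnf4a are highest there, and for Shh and Cited1 the Sox17+/- gallbladders of both strains are low as well.

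Of 39 Hox entries, 33 were read, 20 passed the filter, and 3 were called lower and 1 higher (15.0% and 5.0%), with a median of -0.11. Hoxc8 had the largest difference of any member called lower. It read 8.22 and 8.16 in gallbladder and 3.91 and 5.52 in cystic duct, and every one of the 8 gallbladders read at least 7.68. Hoxc8 was 11.1-fold lower (95% interval of the log2 difference -4.57 to -2.39, limma adjusted p = 0.00456). Hoxd8, of the same paralogous group, read 7.97 and 8.28 against 5.99 and 6.91 (-1.67, SE 0.29, limma adjusted p = 0.0103). Hoxc4 read 7.32 and 7.59 against 6.02 and 6.85 (-1.02, SE 0.28, limma adjusted p = 0.0494). All 3 lay below all 8 gallbladders in both cystic ducts.

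Hoxb7 went the other way at a low level, 4.07 and 4.42 in gallbladder and 5.01 and 5.80 in cystic duct (1.16, SE 0.27, limma adjusted p = 0.030). Neighbours in a cluster did not pass. Between Hoxc4 and Hoxc8, Hoxc5 read 6.24 and 6.29 in gallbladder and 4.42 and 6.87 in cystic duct, and Hoxc6 read 6.67 and 6.60 against 6.56 and 5.90. Beyond Hoxc8, Hoxc9 read 6.89 and 6.42 against 6.55 and 8.47, so the groups overlapped. Hoxd9, beside Hoxd8, stood at 0.67 (SE 0.30). The anterior genes Hoxa2, Hoxa3, Hoxb2 and Hoxb3 lay between -0.09 and 0.05. Hoxa5 stood at -0.97 (SE 0.51) and Hoxb5 at -0.38 (SE 0.19), both below all 8 gallbladders without passing. Without each array in turn Hoxc8 kept its call. That of Hoxd8 was lost without gallbladder replicate 2 (-1.52) and averaged over its 2 probe sets (-0.88), and those of Hoxc4 (-1.15 and -0.89) and Hoxb7 (0.99 and 1.34) without either gallbladder. Without cystic duct replicate 1 Hoxc4 stood at -0.60, and without replicate 2 Hoxb7 stood at 0.77. Hoxc5 changed direction with the array left out: it was called higher at 0.60 without cystic duct replicate 1 and lower at -1.85 without replicate 2. Hoxb7 was not called in either other scaling.

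**Figure D4:**
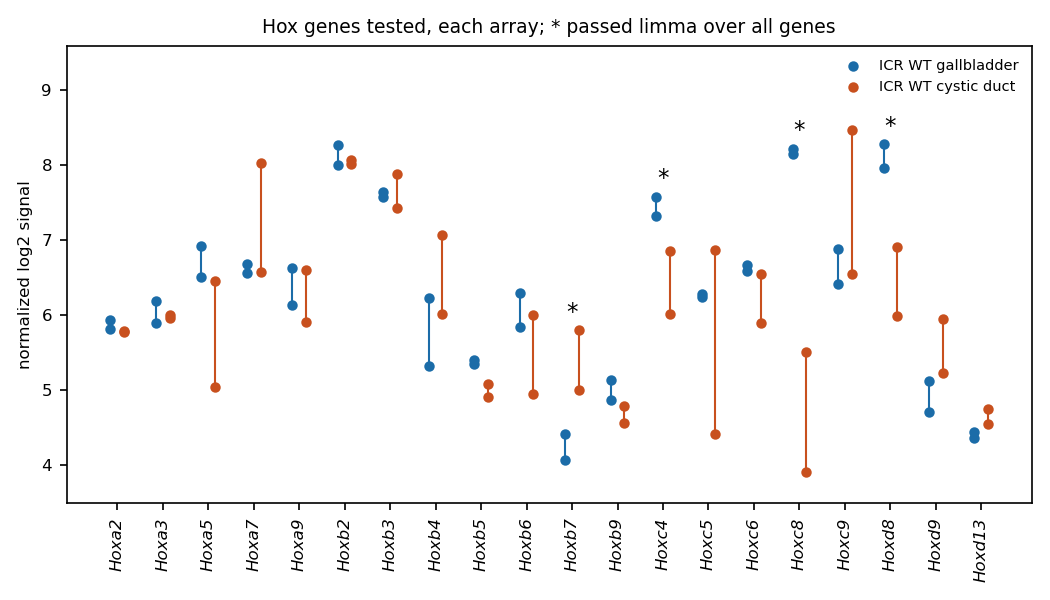
Normalized log2 signal (vertical axis) of the 20 Hox genes tested in the 2 ICR wild type gallbladders (blue) and the 2 cystic ducts (orange), ordered by cluster; lines join the 2 arrays of a group and stars mark genes called by limma over all genes. Hoxc8 at 3.91 and 5.52 is the farthest from its gallbladder pair, and the cystic ducts differ by over 1 log2 unit for Hoxa5, Hoxa7, Hoxb4, Hoxb6, Hoxc5, Hoxc8 and Hoxc9.

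Of 35 Hox partners, left-right, guidance and retinoid genes, 6 were called lower and 0 higher, with a median of -0.24. Efnb2, an ephrin ligand of boundaries and vessels, read 11.14 and 11.26 in gallbladder and 9.76 and 10.09 in cystic duct (-1.28, SE 0.14). Epha7, an ephrin receptor, read 9.90 and 9.77 against 8.53 and 8.71 (-1.22, SE 0.14, limma adjusted p = 0.00264). Both genes were below all 8 gallbladders in both cystic ducts and kept their calls without each array. Aldh1a1, a retinoic acid synthesis enzyme, read 9.79 and 9.85 against 7.79 and 8.83 (-1.51, SE 0.30). Pitx1, a homeobox factor of the hindlimb field, differed by -1.28 (SE 0.23), and Slit3, a secreted guidance cue, by -1.16 (SE 0.27). The Hox cofactors Meis1 and Meis2 stood at -0.66 (SE 0.30) and -0.89 (SE 0.35) without passing, and Pbx3 was called lower at -0.67 (SE 0.14) while a dimmer probe set of it gave 1.73. Averaged over its probe sets, Pbx3 turned to 0.53 (SE 0.44) and did not pass, and the call was also lost without gallbladder replicate 2 (-0.57). Calls were lost without gallbladder replicate 1 or 2 for Aldh1a1 (-1.54 and -1.48) and Slit3 (-1.09 and -1.22), and without replicate 2 for Pitx1 (-1.06). Efnb2 and Pitx1 each stood at -0.62 averaged over probe sets, Pitx1 not passing, and without cystic duct replicate 1 Aldh1a1 stood at -0.99 and Slit3 at -0.74.

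Hedgehog genes of both the sending and the receiving side were called lower. Of 17 genes 8 were called lower and 0 higher, with a median of -0.82. The ligand Shh read 11.70 and 11.69 in gallbladder and 7.90 and 9.62 in cystic duct, 7.64-fold lower (SE 0.46 log2, limma adjusted p = 0.0071). The gallbladders agreed closely and the cystic ducts differed by 1.72, but the higher of them was still 2.07 below the gallbladders. For Shh the Sox17+/- gallbladders lay between the 2 cystic ducts, at 8.36 and 8.56 in ICR and 9.11 and 9.51 in B6. Scube2, which helps release the ligand, read 7.15 and 7.55 against 5.78 and 5.06 (-1.93, SE 0.28), and Hhat, which acylates it, differed by -1.10 (SE 0.20). The second ligand, Ihh, stood at -1.08 (SE 0.32) and did not pass (limma adjusted p = 0.0592).

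On the receiving side, the receptor Ptch1 and the inhibitor Hhip, both also targets, differed by -1.19 (SE 0.26) and -1.68 (SE 0.28). For Hhip the Sox17+/- gallbladders read 6.57 and 6.30 in ICR and 6.49 and 7.02 in B6, against 6.34 and 6.97 in cystic duct. Gli1, the transcriptional readout of the pathway, read 7.79 and 8.07 in gallbladder and 6.50 and 6.03 in cystic duct (-1.66, SE 0.23, limma adjusted p = 0.00467), and Gli2, the main activator, differed by -1.22 (SE 0.19). Both Gli genes lay below all 8 gallbladders in both cystic ducts. Signal transducers and co-receptors did not separate: Smo stood at 0.01 (SE 0.33), Boc at 0.01 (SE 0.20), Cdon at -0.15 (SE 0.16) and Gli3 at -0.48 (SE 0.28). Shh, Scube2, Hhip, Gli1 and Gli2 kept their calls without each of the 4 arrays and in both other scalings, and averaged over probe sets Shh stood at -1.77.

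Of 32 BMP and activin genes, 11 were called lower and 0 higher, with a median of -0.57. The ligand Bmp2 read 8.67 and 8.87 in gallbladder and 6.88 and 6.66 in cystic duct, 4.00-fold lower (SE 0.25 log2, limma adjusted p = 0.00365). Fst, follistatin, the antagonist of activin, read 9.19 and 9.33 against 6.89 and 5.41, and Bmper, a secreted BMP modulator, read 8.42 and 8.75 against 6.81 and 7.04. These 3 lay below all 8 gallbladders in both cystic ducts and kept their calls without each array. The other ligands were less apart: Bmp4, of gut mesenchyme, stood at -0.83 (SE 0.37) and Bmp7 at -0.57 (SE 0.32), and neither passed. Of the receptors, Bmpr1a and Bmpr2 were called lower at -0.79 (SE 0.14) and -0.56 (SE 0.13). Of the Id genes, which BMP signals induce, Id4 (-2.20, SE 0.61), Id2 (-1.17, SE 0.24) and Id3 (-0.92, SE 0.24) were called and Id1 (-0.74, SE 0.31) was not. Gdf10, a ligand of the family, stood at 0.89 (SE 0.28, limma adjusted p = 0.0678). Fstl1, a follistatin-like glycoprotein, was called lower at -1.19 (SE 0.21) and lost its call without gallbladder replicate 1 (-1.13), as Id4 did without either gallbladder (-2.05 and -2.34). Without cystic duct replicate 1 Id4 stood at -1.10.

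Of 42 Wnt genes, 11 were called lower and 0 higher, with a median of -0.23. The non-canonical ligand Wnt5a of gut mesenchyme read 9.78 and 9.93 in gallbladder and 7.14 and 7.70 in cystic duct, 5.41-fold lower (SE 0.22 log2, limma adjusted p = 0.00166). All 4 Wnt5a probe sets were lower, by -1.24 to -2.43. The related ligand Wnt5b differed by -1.86 (SE 0.33), Wnt9a by -1.95 (SE 0.28) and Wnt2 by -1.35 (SE 0.27). Among secreted antagonists, Dkk3 read 9.83 and 9.99 against 8.05 and 7.99 (-1.89, SE 0.14, limma adjusted p = 0.00138), Dkk2 differed by -2.22 (SE 0.49) and Sfrp2 by -1.40 (SE 0.25). Rspo3, an enhancer of Wnt signals, was called lower at -1.56 (SE 0.35). The canonical target Axin2 read 7.09 and 7.07 in gallbladder and 7.10 and 7.12 in cystic duct, a difference of 0.03 (SE 0.17, 95% interval -0.36 to 0.42). Epithelial ligands such as Wnt7b, at 8.42 and 8.13 against 8.03 and 9.81, overlapped. The calls of Dkk2 (-2.27 and -2.17) and Wnt5b (-1.66) were lost without gallbladder replicate 1, that of Dkk2 also without replicate 2, Dkk2 stood at -1.37 without cystic duct replicate 1, and averaged over probe sets Wnt9a stood at -1.02.

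FGF and Notch genes stood near the background. Of 22 FGF genes, 2 were called lower and 1 higher, with a median of -0.09. Fgf7, a mesenchymal ligand that acts on epithelium, read 6.30 and 6.91 in gallbladder and 4.73 and 5.21 in cystic duct (-1.63, SE 0.37), and Fgf10, of the same kind, stood at -0.16 (SE 0.32). Klb, the co-receptor of bile acid feedback in liver, read 5.72 and 5.83 against 9.07 and 6.83, so the cystic ducts were far apart. Fgf11 was called lower at -0.93 (SE 0.21). Of 21 Notch genes, 2 were called lower and 1 higher, with a median of 0.05. Hey2, a target, differed by -1.44 (SE 0.26) and the ligand Dll1 by -0.99 (SE 0.24), while Dll4, the ligand of vessels, stood at 1.20 (SE 0.26). Jag1, the ligand of bile duct formation, at 0.04 (SE 0.25), and Notch2, at -0.06 (SE 0.14), did not pass. None of these 6 calls held without gallbladder replicate 2, where Fgf7 stood at -1.33, Klb at 2.23, Fgf11 at -0.98, Hey2 at -1.42, Dll1 at -1.06 and Dll4 at 1.28, nor without replicate 1 (-1.94, 2.12, -0.88, -1.45, -0.92 and 1.13). Klb stood at 1.06 and 3.29 without cystic duct replicate 1 or 2, and Klb was not called in either other scaling (1.91 and 2.01). Averaged over probe sets Fgf11 turned to 0.12 and Klb stood at 1.17, neither passing.

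The largest differences in each direction were also ranked over all genes tested, members included, leaving out a list of liver and blood genes and gene name prefixes. Upward, the first were Spink1, a trypsin inhibitor, at 4.05 (SE 0.53), Qprt, of NAD synthesis, at 3.77 (SE 0.41), and Mtarc1, a mitochondrial reductase, at 3.66 (SE 0.30). Of the 15 genes so ranked, at least Aqp8, Spp2, Hgfac, Klkb1, Ftcd, Hc and Mst1 are also known genes of hepatocytes, which the excluded names did not hold. Cldn1, which liver and biliary cells both express, is among the 15 too. Spink1, Qprt and Mtarc1 read higher in cystic duct replicate 1, as did the hepatocyte list and 545 of the 842 genes called higher. The cell source of these 3 was not tested. Nrn1, neuritin, read 7.14 and 6.22 in gallbladder and 10.25 and 9.43 in cystic duct (3.16, SE 0.38). Cdhr2, a protocadherin of the brush border, read 5.26 and 5.12 against 8.70 and 7.76 (3.04, SE 0.31). Both lay above all 8 gallbladders and kept their calls without each array. Like most genes called higher, both read higher in cystic duct replicate 1, and their cell source was not tested. Fermt3, of blood cells, overlapped with the other gallbladders and lost its call without gallbladder replicate 1 (1.66) and without cystic duct replicate 1 (2.18). Hgfac (3.73 and 2.66) and Hc (3.78 and 2.47) lost theirs without gallbladder replicate 1 or 2, and Klkb1 (2.81) without replicate 2. Neither other scaling called Hgfac (2.86 and 2.97), Hc (2.82 and 2.92) or Fermt3 (2.55 and 2.65). Without cystic duct replicate 1 Hgfac stood at 2.00 and Hc at 1.68, and averaged over probe sets Spp2 stood at 1.48.

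Downward, the first was Agtr2, the type 2 angiotensin receptor of fetal mesenchyme, at 9.95 and 9.58 in gallbladder and 4.31 and 7.65 in cystic duct (-3.79, SE 0.87). Tnnt2, cardiac troponin T, read 8.76 and 9.35 against 6.25 and 4.37 (-3.74, SE 0.57), and Cpa6, a carboxypeptidase, 7.52 and 7.55 against 3.83 and 4.60 (-3.32, SE 0.32). Htr1b, a serotonin receptor, read 7.50 and 7.08 against 4.81 and 3.19 (-3.29, SE 0.46). Abi3bp, a matrix protein, differed by -3.16 (SE 0.41) and Gem, a small GTPase, by -2.88 (SE 0.31). Col19a1, a collagen of muscle, read 8.17 and 8.48 against 5.83 and 4.82. Angptl1, a secreted angiopoietin-like protein, differed by -2.82 (SE 0.38) and Ccl11, the chemokine eotaxin, by -2.80 (SE 0.29). All 15 genes ranked downward except Shh lay below all 8 gallbladders in both cystic ducts. The call of Agtr2 was lost without gallbladder replicate 1 or 2 (-3.60 and -3.98), and without cystic duct replicate 1 it stood at -2.12. That of Cyria, at -2.85 (SE 0.65), was lost likewise (-2.94 and -2.76), and it stood at -1.67 without cystic duct replicate 2. Averaged over probe sets, Tnnt2 stood at -2.17, Htr1b at -1.72, Angptl1 at -0.96 and Cyria at -1.13.

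The 2 cystic ducts did not deviate to the same degree. Over the mesenchymal genes tested, the median difference from gallbladder was -1.01 in replicate 1 and -0.55 in replicate 2, and replicate 1 read lower than replicate 2 for most of them, reading higher in 34 of 152. Over epithelial genes the medians were 0.14 and 0.11, and replicate 1 read higher in 67 of 135. Among all genes called higher, 545 were higher in replicate 1 and 297 at least as high in replicate 2. Outside the liver and blood lists, 34 genes with a gap of over 1 log2 unit were at least as high in replicate 2. Among them, chosen after the values were seen, was Slc34a2, a phosphate transporter of secretory epithelia. It read 6.22 and 6.12 in gallbladder and 8.04 and 9.03 in cystic duct (2.37, SE 0.34), and the highest of the 8 gallbladders read 8.18. The liver genes Shbg (2.22, SE 0.21) and Gcgr (1.87, SE 0.25), chosen likewise, were also among them, as was Hnf4a. The liver and blood lists thus did not hold every liver gene, and the cell source of the 34 was not tested.

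**Figure D5:**
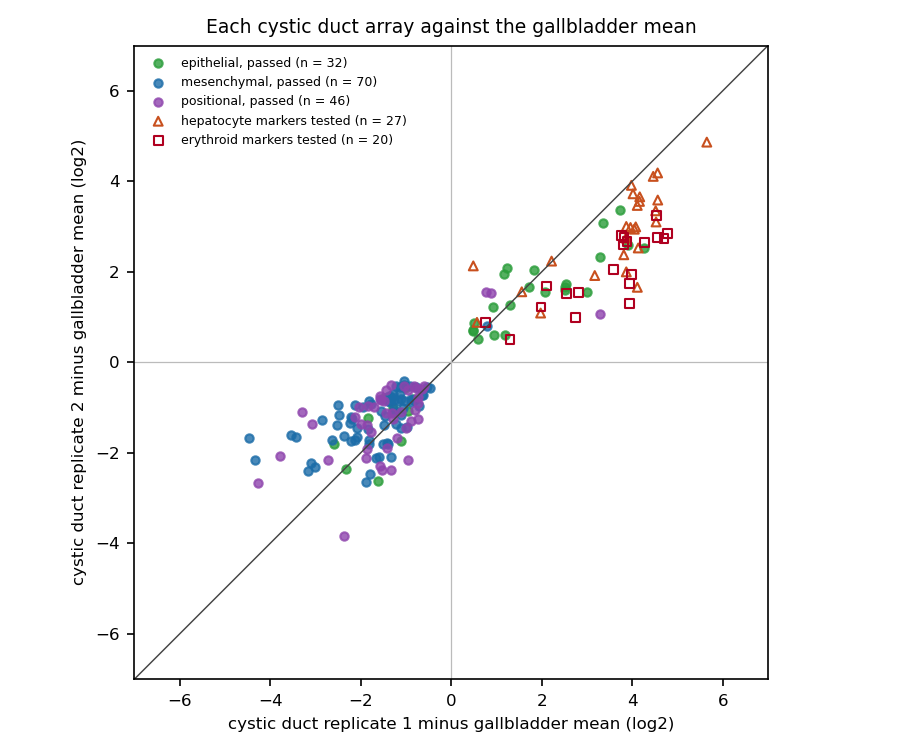
Log2 difference of cystic duct replicate 1 (horizontal axis) and replicate 2 (vertical axis) from the gallbladder mean, for the 148 members called by limma (filled) and for the hepatocyte and erythroid markers tested (open); the diagonal marks equal differences. Hepatocyte and erythroid markers lie mostly to the right of the diagonal, as do epithelial members such as Aqp8, Car2, Slc10a1 and Tff3, Hnf4a and Cdh16 lie on its other side, and the lower members scatter on both sides.

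Other cell types were read from their markers. Of 21 endothelial genes, 1 was called higher and 2 lower (median -0.03); the 1 was Stab2, of liver sinusoids, at 1.43 (SE 0.26), lost without gallbladder replicate 1 or 2 (1.42 and 1.43). Of 10 stellate and portal genes, Reln, reelin, was called higher at 2.78 (SE 0.30), 1.20 averaged over probe sets, and Hand2 lower. Of 16 pancreas genes, Chga, chromogranin A, at 1.76 (SE 0.35), and Isl1 were called higher. Both calls were lost without gallbladder replicate 1 or 2 (1.80 and 1.72 for Chga). The pancreas gene Ctrb1, at -0.77 (SE 0.22), lay below all 8 gallbladders without passing (limma adjusted p = 0.0528). Of 15 intestine and stomach genes, 3 were called higher, Tff3, Krt20 and Slc5a1, which the epithelial lists hold too. Others went down without passing: Vil1 at -1.68 (SE 0.58, limma adjusted p = 0.0929) and Lgals4 at -0.82 (SE 0.34, limma adjusted p = 0.146). Both lay below all 8 gallbladders, and Cdh17, at -0.34, below the ICR wild type gallbladders only. Of 18 mesothelial genes 3 were called lower (16.7%) and 1 higher (5.6%), and of 19 neural genes 3 lower (15.8%) and 0 higher. Of 22 immediate early and heat shock genes, 5 were called lower (22.7%) and 0 higher. Of 18 skeletal muscle genes 0 were called by limma in either direction (2 lower at an unadjusted p under 0.05), and their summed log2 signal of 10.20 and 10.37 in cystic duct lay close to the 10.52 and 10.82 in gallbladder.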

How the data were processed

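Total RNA of the gallbladder or cystic duct was hybridised to 10 Affymetrix mouse arrays, with 2 samples in each of 5 groups. The authors deposited 1 log2 signal for each probe set and array (45101 probe sets, values from 2.20 to 15.15); how the authors corrected background and normalized between arrays is not given in the sources used here. Arrays give no read depth, and their number limits the precision.

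Probe sets were named from the platform annotation: 34945 had 1 gene symbol, 932 several and 9160 none, and only the first kind was used. Signals were quantile normalized (limma 3.58.1, R 4.3.3), 1 probe set was kept for each of 18193 genes, and genes with a mean log2 under 4.47 (the 30th percentile over probe sets) were left out. A limma model with 5 group means, empirical Bayes variances that follow a trend over mean signal gave the contrast, with 5 residual and 7.95 total degrees of freedom, and Benjamini-Hochberg adjusted p-values over all genes tested. The fit was tested on simulated data.

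The lists and genes were chosen with earlier results of these data known. Named by rule were up to 5 called genes per list and direction by size, or, where fewer than 2 passed, 2 separated ones by p, 15 per direction over all genes, every Hox gene, and 3 per direction of the other cell lists by p. Genes named besides these were chosen for their known role with their values in view. Alternatives were the deposited and median-centred values, other filters, the mean of probe sets, no trend, array weights, the 4 arrays alone, a replicate block and leaving out each array. Promoter windows are from RefSeq (GRCm38.p6).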

Additional observations from a re-analysis of the deposited data

How the results depend on the processing

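The number of calls depended on how the spread was estimated more than on any other choice. With array weights, and with the 4 compared samples alone, limma called 0 genes higher and 0 lower, and 0 epithelial, 0 mesenchymal and 0 positional genes, with 1871 and 2083 genes at an unadjusted p under 0.05. Genes called higher numbered 287 with the values as deposited and 391 with each array centred on its median, against 842. Leaving out 1 array at a time gave 398 to 3423 genes higher, 423 to 4116 lower, and 13 to 63 epithelial, 39 to 104 mesenchymal and 19 to 100 positional genes called. The fewest came without gallbladder replicate 1 and the most without a cystic duct array, where the lone cystic duct was assumed to vary as much as arrays of other groups do. The count of lower genes and the total calls of each of the 3 classes, both directions together, stayed within 1.5 times of the main counts under the other scalings, filters, the mean of probe sets, no trend and the block. By direction they did not: with the values as deposited, epithelial calls went from 22 higher and 10 lower to 13 and 17, and lower matrix genes from 18 to 34. Once averaged over their probe sets, Fgf11 turned to 0.12 and Pbx3 to 0.53, and Hoxc5 ran from -1.85 without cystic duct replicate 2 to 0.60 without replicate 1. The causes were not tested.

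Replicate numbers were not shown to pair the samples: deviations of same-numbered arrays correlated at 0.08 and 0.09 between cystic duct and the ICR gallbladder groups and at 0.38 between those groups. In a fit with a replicate block, 715 genes were called higher and 999 lower, and 28 epithelial, 64 mesenchymal and 40 positional genes were called.

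With 2 arrays a group, one of which had a compressed signal range, a gene that missed the threshold is not shown to be equal between the tissues. Of the 148 called members, 92 had several probe sets, and for 32 of them at least 1 probe set went the other way.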
